A study of Mus musculus with 32 samples.

Results

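Potassium channel genes were examined in striatal RNA from 4 genotypes of mice. The set was defined by name as the protein-coding genes whose symbol in the GENCODE M21 annotation starts with Kcn, and it held 94 of the 54532 genes in the count table. It takes in pore-forming subunits and accessory subunits alike, and leaves out 5 antisense transcripts that carry a Kcn name. Of the 94 members, 80 passed the filter on low counts and were tested. The other 14 (Kcna7, Kcna10, Kcne1, Kcne3, Kcnj1, Kcnj15, Kcnk7, Kcnk15, Kcnk16, Kcnk18, Kcnmb3, Kcnn4, Kcnq1 and Kcnv2) lay between 0 and 0.286 TPM (transcripts per 1000000, scaled for gene length) on average in WT mice and were not tested.

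The mice were 6 months old, with 8 of each genotype. WT mice carried neither change. The zQ175 mice carried a knock-in allele of the mouse Htt gene with a highly expanded CAG repeat, a model of Huntington's disease in which mutant huntingtin is made from the endogenous locus in every cell that uses it. Msh3-/- mice lacked both working copies of Msh3, a mismatch repair gene, after CRISPR Cas9 editing, and zQ175:Msh3-/- mice carried both changes. All genotypes were bred as littermates on a C57BL/6J background, with 4 males and 4 females per genotype except zQ175:Msh3-/-, which had 5 males and 3 females. The zQ175 effect can be read against WT and, in separate mice, on the Msh3-/- background, and the comparison of zQ175:Msh3-/- with zQ175 asks what loss of Msh3 does to it.

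Libraries held between 12359347 and 25030335 counted reads, so that 3 reads amounted to at most 0.243 CPM (counts per 1000000 counted reads). Msh3 itself gave 22.9 to 27.5 CPM in WT and 22.8 to 27.4 CPM in zQ175, against 10.4 to 13.6 CPM in Msh3-/- and 11.1 to 14.2 CPM in zQ175:Msh3-/-. These counts are per gene, and the edit deleted only part of the gene. The paper reports that Msh3 mRNA measured inside the deleted region was ablated in homozygous cortex, where the protein was not detected. The source of the remaining reads was not tested. The 8 markers of spiny projection neurons, the main neurons of the striatum, summed to 5886 to 7240 CPM in WT and 5922 to 7519 CPM in Msh3-/-, but to 3324 to 4371 CPM in zQ175 and 3447 to 4299 CPM in zQ175:Msh3-/-, with none at 0. In zQ175 against WT, 7 of these 8 markers fell (median log2 fold change -0.81). In bulk tissue, fewer cells of a type and less RNA per cell cannot be told apart, and the part of this change in the values below was not tested. Summed levels overlapped between genotypes for the marker lists of astrocytes (810 to 1000 CPM over all mice), microglia (323 to 427 CPM) and oligodendrocytes (6999 to 12151 CPM). The endothelial and mural markers summed to 295 to 328 CPM in WT, 261 to 324 CPM in Msh3-/-, 233 to 299.5 CPM in zQ175 and 249 to 283 CPM in zQ175:Msh3-/-, so that WT and zQ175:Msh3-/- did not overlap. Of 6 interneuron markers 2 (Chat and Slc5a7) were lower in zQ175 than in WT, of 6 oligodendrocyte markers 1 (Mobp), of 6 endothelial and mural markers 1 (Flt1), and of 7 tested markers of thalamus, septum and pallidum 0. The same counts on the Msh3-/- background were 3 lower (Chat, Slc5a7 and Slc18a3), 0, 0, and 3 (Gbx1 and Zic1 lower, Trpc4 higher).

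Potassium channels let potassium ions leave or enter a cell down their gradient, and so set the resting potential, the spike threshold and the speed of repolarisation. In spiny projection neurons inward rectifiers hold the cell at a very negative potential at rest, A-type channels built from Kv4 subunits delay the first spike, and the M-current of Kv7 subunits damps repetitive firing. Pores are made of 4 copies of a subunit, or of a pair of subunits that each hold 2 pore loops, and beta, KChIP, Kcne and Kcnmb proteins attach to them and change their gating or their delivery to the membrane.

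What the pore-forming members share in sequence is the selectivity filter, the short run of residues that strips water from potassium ions. A search of the coding sequence in reading frame, on the coding strand only, looked for consecutive codons for threonine, a residue whose codon has T in the middle (phenylalanine, leucine, isoleucine, methionine or valine), glycine, tyrosine and glycine. They were found in 55 of the 94 members and in 0.321% of 21523 genes with a complete coding sequence. A shorter variant, which sets no residue in the place of the threonine and has phenylalanine or leucine in place of tyrosine, was found in 24 members and in 3.84% of genes. Either motif was present in 71 members and in 4.13% of genes. The 23 members with neither were the accessory Kcnab, Kcne, Kcnip and Kcnmb genes, Kcnrg, and 6 pore-forming genes (Kcnj14, Kcnk1, Kcnk7, Kcnn1, Kcnn2 and Kcnn3). Each of these 6 still held in-frame codons for glycine, tyrosine and glycine. That shorter run was found in 62 members and 6.11% of genes. The filters below belong to members whose levels differed between genotypes and show the longer motif (Kcng1) and the shorter variant (the others), with the motif in capitals.
Kcng1: atgacaACCGTAGGCTACGGAgacatg
Kcnh3: ctcaccagtGTGGGCTTCGGCaacgtg
Kcnh4: ctcaccagtGTAGGCTTCGGCaacgtg
Kcnh8: ctcacaagcGTTGGGTTTGGGaatgtg
Kcnk2: ctgacgaccATTGGATTTGGAgactac
All are printed 5′ to 3′ on the coding strand from GRCm38. They lie at chr2:168262635-168262661 (minus strand) for Kcng1, chr15:99232923-99232949 (plus) for Kcnh3, chr11:100750287-100750313 (minus) for Kcnh4, chr17:52877985-52878011 (plus) for Kcnh8 and chr1:189256575-189256601 (minus) for the second pore loop of Kcnk2. Each window sits in a single coding exon.

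In zQ175 against WT, potassium channel genes were called more often than genes at large, and mostly as lower. A gene was called when its Benjamini-Hochberg adjusted p in edgeR's quasi-likelihood test, taken over all 16610 genes tested, was under 0.05 and its change was at least 1.2-fold. Of the 80 tested members 21 were called (26.2%), against 11.6% of all genes tested. Of these, 17 were lower, with 6.89% of all genes called lower, and 4 were higher, with 4.7% of all genes called higher. The median log2 fold change of the 80 members was -0.03, beside 0.01 over all genes. The values of the 8 zQ175 and 8 WT mice did not overlap for 14 of the 80 members, 13 of them lower, where 6.63% of all genes did not overlap. On the deposited TPM scale, tested with limma on log2(TPM + 0.1), 5 members were called higher and 11 lower, so that the share of higher calls was 31.2% there and 19.0% on counts. The same shift was seen over all genes, of which 9.86% were called on TPM, and among those calls 59.9% were higher on TPM and 40.6% on counts. Kcna4, Kcnd2, Kcnq3, Kcnt1 and Kcnh5, among others, kept a negative fold change on that scale but were no longer called.

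On the Msh3-/- background the zQ175 effect was measured in 16 other mice. There 17 members were called (21.2%, against 10.6% of all genes), of which 13 were lower (5.96% of all genes) and 4 higher (4.68% of all genes). There were 12 members that did not overlap between those groups, against 5.39% of all genes. On TPM, 5 were called higher and 10 lower, a share of higher calls of 33.3% against 23.5% on counts, while over all genes (9.98% called on TPM) that share was 68.5% against 44.0%. In all, 12 members were called in both comparisons, all 12 in the same direction, which is 57.1% of the first list and 70.6% of the second. All 21 members called against WT had the same sign of change on the Msh3-/- background. Across the 80 members the log2 fold changes of both comparisons correlated with a Pearson r of 0.89, a description across genes that share libraries and are not independent replicates. In zQ175:Msh3-/- against WT, which reuses mice of both comparisons, 19 members were called (5 higher and 14 lower), where 12% of all genes were called, 5.5% as higher and 6.49% as lower.

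**Figure D1:**
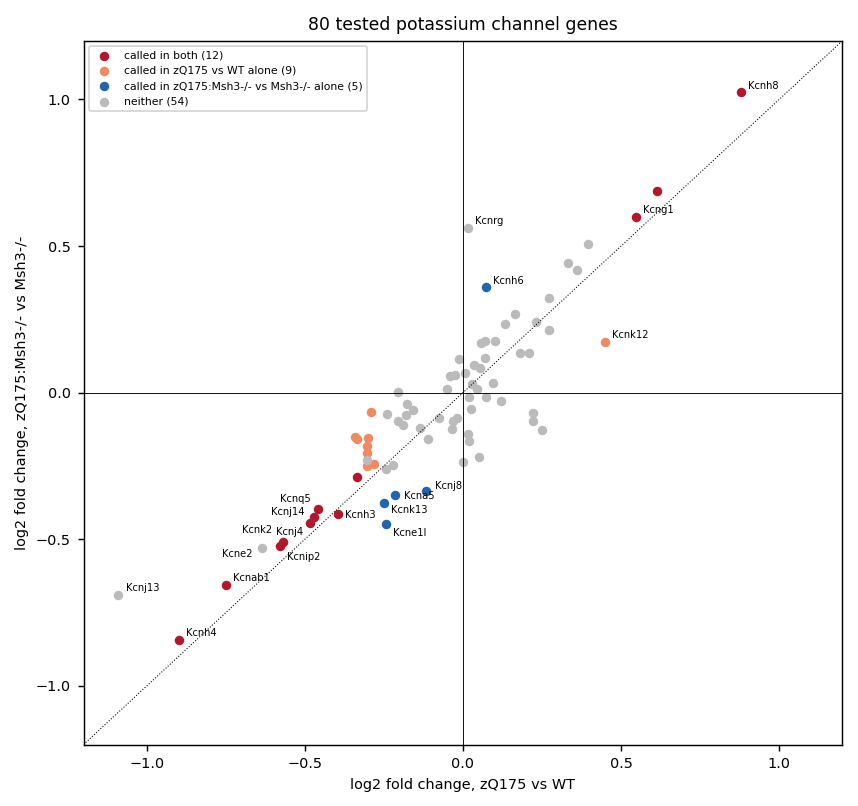
Log2 fold change of the 80 tested potassium channel genes in zQ175 against WT (horizontal axis) and in zQ175:Msh3-/- against Msh3-/- (vertical axis), 8 mice per genotype; each point is a gene, colour gives where it was called, and the dotted line marks equal changes. The 12 genes called in both lie near that line, from Kcnh4 at the lower left (-0.90 and -0.84) to Kcnh8 at the upper right (0.88 and 1.02); Kcnj13 and Kcne2, at the left, had standard errors of about 1 and were not called.

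Most of the lowered members were abundant potassium channel transcripts of the striatum, with 11 of the 17 among the highest 20 members, although the levels reached down to 2.64 TPM. By mean TPM in WT mice, a unit per length in which genes can be compared, the highest included Kcnab1 (315 ± 23 SD, n = 8), Kcnip2 (291 ± 21), Kcnj4 (210 ± 8.6), Kcnab2 (207 ± 15) and Kcnk2 (173 ± 15). Kcnj4 and Kcnab2 lie within their spread of each other. Of the highest 6 genes 5 were, and of the highest 10 genes 8 were, lower in zQ175 than in WT. Among the 36 members at 20 TPM or more in WT, a limit chosen after the values were seen, 15 were called lower and 1 higher (41.7% lower), against 7.8% lower and 2.13% higher of 7283 genes above the same limit. On the Msh3-/- background, in separate mice, 9 of these 36 were called lower and 1 higher (25% lower). There 5.96% of all genes tested, without that limit, were called lower. For the 17 members lowered in zQ175 against WT, the median WT level was 82.3 TPM. It was 2.93 TPM for the 4 higher ones and 11.3 TPM for the 59 that were tested and not called. Summed over all 94 members, TPM was 3213 ± 111 for WT, 3201 ± 41.5 for Msh3-/-, 2776 ± 97.9 for zQ175 and 2858 ± 108 for zQ175:Msh3-/- (mean ± SD, n = 8), and the zQ175 genotypes did not overlap with the others.

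**Figure D2:**
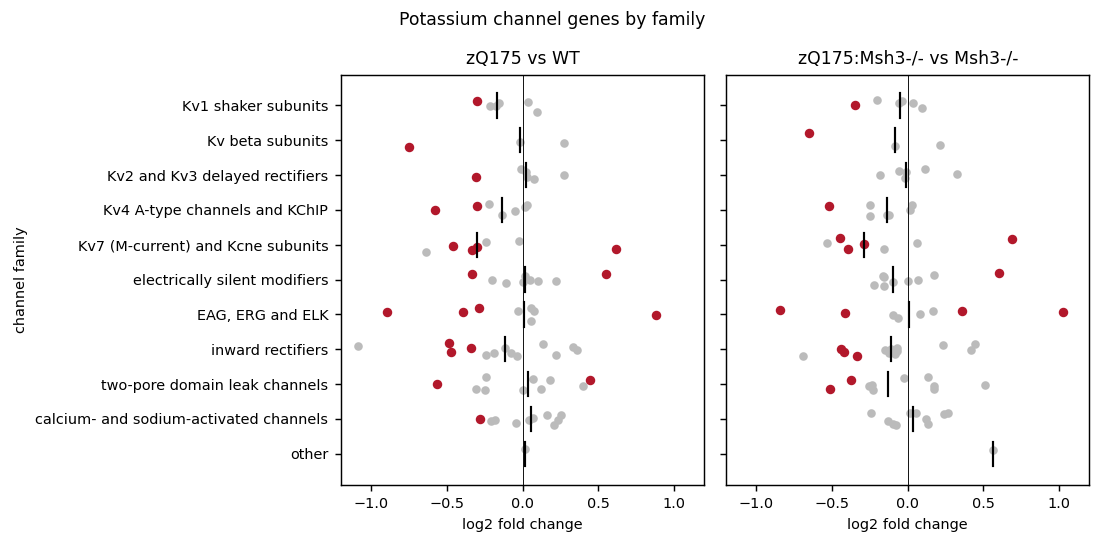
Log2 fold change of each tested potassium channel gene, by family, in zQ175 against WT (left) and zQ175:Msh3-/- against Msh3-/- (right), 8 mice per genotype; red points were called, grey points were not, and the vertical bar is the family median. In the EAG, ERG and ELK row Kcnh4 and Kcnh8 lie at opposite ends.

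The 2 most abundant members, both accessory subunits, fell. Kcnab1 (chr3:65109384-65378223) encodes the Kv beta 1 subunit, which speeds inactivation of Kv1 channels. It ranged from 403 to 489 CPM in WT (median 440) and from 358 to 470 CPM in Msh3-/- (median 421), but from 236 to 291 CPM in zQ175 (median 265) and from 256 to 285 CPM in zQ175:Msh3-/- (median 260). No zQ175 mouse of either Msh3 genotype reached the lowest mouse without the knock-in. The log2 fold change was -0.75 ± 0.048 (SE) against WT (edgeR adjusted p = 8.2e-15; exact permutation p = 0.000155, two-sided, the smallest that 8 against 8 allows) and -0.66 ± 0.048 on the Msh3-/- background (edgeR adjusted p = 3.9e-13). There are 2 annotated transcripts opposite Kcnab1, and their reads cannot be told apart from its own, because it is not given in the sources used here whether reads were counted by strand. The related Kcnab2, nearly as abundant, ranged from 308 to 368 CPM in WT and from 298 to 362 CPM in zQ175, a log2 fold change of -0.02 with a 95% interval of -0.12 to 0.09.

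Kcnip2 (chr19:45791839-45816061) encodes KChIP2, a calcium-binding partner of Kv4 channels. Its WT mice lay between 280 and 350 CPM (median 320) and its Msh3-/- mice between 284 and 355 (median 302), whereas zQ175 mice lay between 192 and 241 (median 204) and zQ175:Msh3-/- mice between 206 and 242 (median 213). Again the groups with and without the knock-in did not overlap. The change was -0.58 ± 0.053 against WT and -0.52 ± 0.053 on the Msh3-/- background (log2, SE; edgeR adjusted p = 9.0e-11 and 1.3e-09). Kcnip3 fell by less, with log2 fold changes of -0.22 and -0.25 that passed the adjusted p but not the 1.2-fold limit.

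Kcnd2 (chr6:21215503-21729805), the Kv4.2 pore that KChIP proteins bind, had 205 to 238 CPM in WT (median 220) and 162 to 194 CPM in zQ175 (median 179), without overlap. Its log2 fold change was -0.30 ± 0.039 (edgeR adjusted p = 1.9e-07), and on the Msh3-/- background -0.25 ± 0.039 (edgeR adjusted p = 8.2e-06), where the groups did not overlap either but the change stayed under 1.2-fold. Of the 7 Kv4 and KChIP genes, all tested, 2 were called lower against WT (Kcnd2 and Kcnip2) and 1 on the Msh3-/- background (Kcnip2), with a median of -0.14 in both. These are 28.6% and 14.3%, beside 11.6% and 10.6% of all genes called in either direction.

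Among Kv1 subunits, which open at low voltages and limit firing, 1 of 6 tested genes was called in each comparison. That is 16.7%, beside 11.6% and 10.6% of all genes. Kcna4 (chr2:107290639-107298502), an A-type subunit, was at 80.2 to 103 CPM in WT (median 84.0) and 60.3 to 78.5 CPM in zQ175 (median 69.2), a log2 fold change of -0.30 ± 0.059 (edgeR adjusted p = 0.00015) with no overlap. On the Msh3-/- background it was -0.21 ± 0.059, under the fold limit. Kcna5 was called there instead (-0.35 ± 0.102, edgeR adjusted p = 0.0115) at 15.4 to 24.5 CPM in zQ175:Msh3-/- against 22.6 to 36.1 CPM in Msh3-/-, and gave -0.22 ± 0.101 against WT (edgeR adjusted p = 0.12). Kcna1 and Kcna2, abundant axonal subunits, had log2 fold changes of -0.18 and -0.16 against WT, past the adjusted p and short of the fold limit.

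A pair of genes for electrically silent subunits, which form no channel alone and modify Kv2 pores, moved in opposite directions. Kcng1 (chr2:168260117-168281736) rose, from 34.8 to 44.9 CPM in WT (median 36.8) and 31.6 to 44.4 CPM in Msh3-/- (median 37.0) to 48.1 to 63.2 CPM in zQ175 (median 54.9) and 49.9 to 61.5 CPM in zQ175:Msh3-/- (median 58.9). All 16 mice with the knock-in lay above all 16 without it. Its log2 fold change was 0.55 ± 0.070 against WT and 0.60 ± 0.071 on the Msh3-/- background (edgeR adjusted p = 2.1e-07 and 5.5e-08). Kcns2 was at 50.1 to 65.0 CPM in WT and 40.4 to 47.0 CPM in zQ175, without overlap (-0.34 ± 0.054, edgeR adjusted p = 7.6e-06), whereas on the Msh3-/- background the difference was -0.16 ± 0.054 and was not called. For Kcns2 the difference between both effects was 0.18 on the log2 scale (unadjusted p = 0.025, edgeR adjusted p = 0.999). Of the 10 silent subunit genes 9 were tested, and the others were not called. The called shares were 22.2% against WT and 11.1% on the Msh3-/- background, beside 11.6% and 10.6% of all genes.

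Among the Kv7 genes, which encode subunits of the M-current, Kcnq5 fell in both comparisons and Kcnq3 against WT. Kcnq5 (chr1:21398403-21961942) lay between 118 and 140 CPM in WT (median 127) and between 79.5 and 107 CPM in zQ175 (median 94.5), without overlap. It changed by -0.46 ± 0.047 and -0.40 ± 0.047 (edgeR adjusted p = 1.2e-09 and 3.9e-08). Kcnq3, another M-current subunit, had 273 to 350 CPM in WT and 214 to 274 CPM in zQ175, and 7 of 8 zQ175 mice lay below all WT mice (-0.30 ± 0.057, edgeR adjusted p = 9.9e-05). It was -0.16 ± 0.057 on the Msh3-/- background.

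Of the Kcne accessory genes, Kcne1l was called only on the Msh3-/- background, at 5.53 to 7.85 CPM in Msh3-/- and 3.98 to 6.63 CPM in zQ175:Msh3-/- (-0.45 ± 0.114, edgeR adjusted p = 0.0034). Against WT it gave -0.24 ± 0.113 (edgeR adjusted p = 0.11). Kcne1l and Kcna5 were lower in mice with more of the summed cortical markers described below (Pearson r = -0.64 and -0.54, Spearman rho = -0.65 and -0.62, permutation test, adjusted p for r = 0.00047 and 0.0073), and without the 2 farthest mice r was -0.47 and -0.58. On the Msh3-/- background both stayed called with the marker level as a covariate, and neither was called in females alone. Against WT, Kcna5 was called under 1 of 15 alternatives, the fit of females alone, and Kcne1l under 0 of 15.

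**Figure D3:**
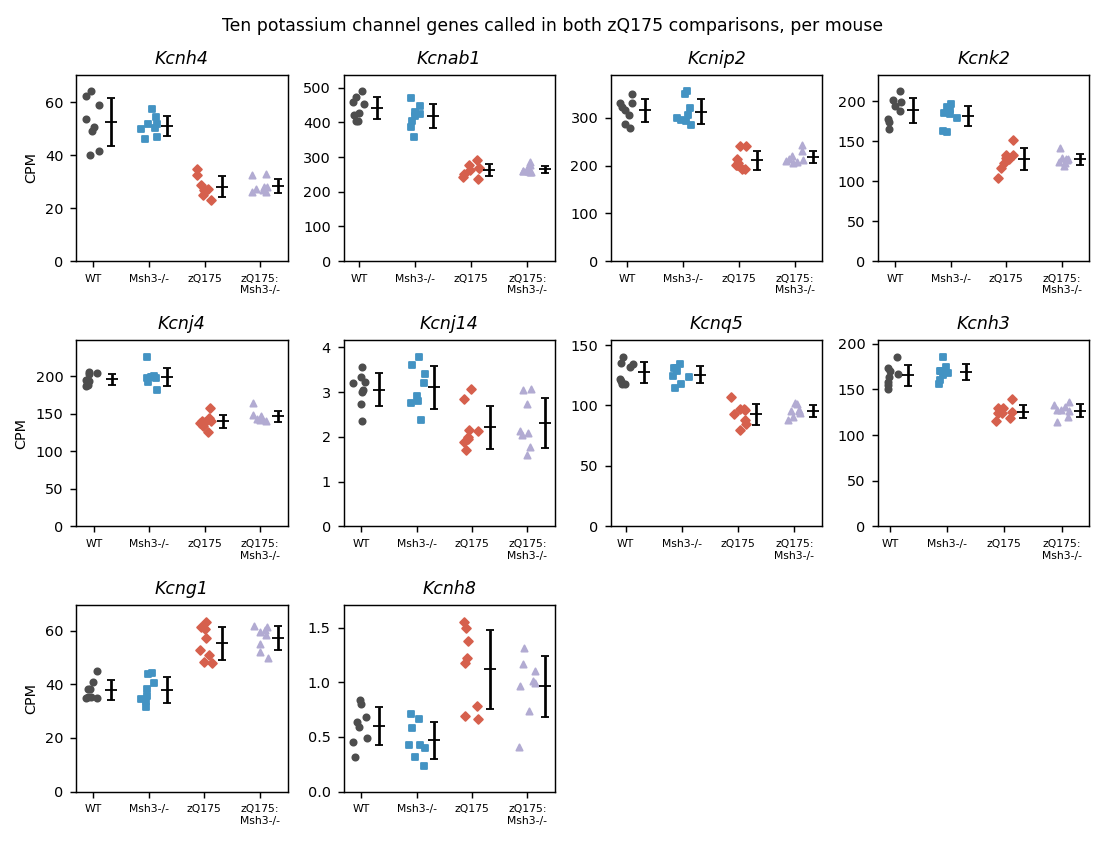
CPM per mouse (vertical axis, from 0) for 10 of the 12 potassium channel genes called in both zQ175 comparisons, in the 4 genotypes; each point is a mouse and the bar beside it is the mean ± SD of 8 mice. Means of zQ175 and zQ175:Msh3-/- lie close together, below those of WT and Msh3-/- for 8 genes and above them for Kcng1 and Kcnh8; Kcnj14 and Kcnh8 overlap between groups.

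The ELK channels, slow voltage-gated channels that lower excitability near rest, gave changes in both directions. Kcnh4 (chr11:100740376-100759942) had the largest fall of all called members. Its WT mice lay between 40.1 and 64.0 CPM (median 52.2), its Msh3-/- mice between 45.9 and 57.4 (median 50.9), its zQ175 mice between 23.2 and 34.8 (median 27.2) and its zQ175:Msh3-/- mice between 26.1 and 32.8 (median 27.5). No mouse with the knock-in reached the range of those without it, and the log2 fold changes were -0.90 ± 0.087 and -0.84 ± 0.088 (edgeR adjusted p = 1.1e-09 and 6.3e-09), 1.86-fold and 1.79-fold lower. Kcnh3 (chr15:99224861-99242817) fell from 151 to 186 CPM in WT (median 165) to 115 to 139 CPM in zQ175 (median 125), by -0.40 ± 0.042, and by -0.41 ± 0.042 on the Msh3-/- background (edgeR adjusted p = 2.0e-09 and 9.1e-10).

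Kcnh8 (chr17:52602709-52979194), the remaining ELK gene, rose from a very low level, 0.325 ± 0.098 TPM in WT. It gave 0.320 to 0.839 CPM in WT (median 0.611) and 0.666 to 1.55 CPM in zQ175 (median 1.2), and 0.236 to 0.706 CPM in Msh3-/- (median 0.423) against 0.410 to 1.31 CPM in zQ175:Msh3-/- (median 1.0). The groups overlapped in both comparisons. The log2 fold changes were 0.88 ± 0.224 and 1.02 ± 0.244 (edgeR adjusted p = 0.0029 and 0.0017), and neither was called in females alone (edgeR adjusted p = 0.33 and 0.22). Kcnh8 was also not called on the Msh3-/- background when fitted without the mice high in Ttr, described below, or with limma on log2(TPM + 1). Kcnh5, an EAG channel, was called against WT (log2 fold change -0.29), and Kcnh6, an ERG channel, on the Msh3-/- background (0.36). Kcnh6 was called under 8 of 15 alternatives. Kcnh5 was called under 10 of 15 against WT, and not in males alone. On the Msh3-/- background Kcnh5 was called under 0 of 15, with log2 fold changes from -0.11 to -0.00036.

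Inward rectifiers pass potassium into the cell more readily than out of it, and Kir2 channels set the resting potential of spiny projection neurons. Kcnj4 (chr15:79483714-79505241), which encodes Kir2.3, ranged from 188 to 206 CPM in WT (median 195), from 182 to 226 CPM in Msh3-/- (median 198), from 126 to 157 CPM in zQ175 (median 140) and from 141 to 165 CPM in zQ175:Msh3-/- (median 144). Mice with and without the knock-in did not overlap. The log2 fold changes were -0.48 ± 0.039 and -0.44 ± 0.039 (edgeR adjusted p = 3.2e-12 and 4.0e-11). Kcnj2, for Kir2.1, was at 53.1 to 71.4 CPM in WT and 43.9 to 58.3 CPM in zQ175, with 6 of 8 zQ175 mice below all WT mice (-0.34 ± 0.081, edgeR adjusted p = 0.0016). On the Msh3-/- background it was -0.15 ± 0.081 and was not called (edgeR adjusted p = 0.19). Kcnj14, for Kir2.4, changed by -0.47 and -0.42 and was called in both. It was called under 12 of 15 alternatives against WT and 9 of 15 on the Msh3-/- background. Neither sex alone called it in either comparison, and limma on TPM did not call it on the Msh3-/- background.

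Of 13 tested inward rectifier genes, 3 were called lower in each comparison and none higher, with medians of -0.12 and -0.11. That is 23.1% in each, beside 11.6% and 10.6% of all genes called in either direction. Kcnj8, the Kir6.1 pore of KATP channels found in vessel walls, was the one added on the Msh3-/- background (2.78 to 4.19 CPM in zQ175:Msh3-/- against 3.74 to 6.09 CPM in Msh3-/-, -0.34 ± 0.103, edgeR adjusted p = 0.015). Without the 7 mice high in Ttr described below its adjusted p was 0.058. Kcnj8 was called there under 9 of 15 alternatives, and not in females alone or with limma on TPM. Against WT it was called under 0 of 15, with log2 fold changes from -0.14 to -0.06. The 6 endothelial and mural markers, none at 0 and 0 of 6 called there, summed to 261 to 324 CPM in Msh3-/- and 249 to 283 CPM in zQ175:Msh3-/-. Kcnj10, the Kir4.1 channel of astrocytes, had 159 to 196 CPM in WT and 148 to 188 CPM in zQ175, a log2 fold change of -0.08 with a 95% interval of -0.17 to 0.02. Its interval on the Msh3-/- background was -0.18 to 0.01.

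The G-protein-gated inward rectifiers Kcnj3, Kcnj6 and Kcnj9, which slow firing downstream of inhibitory receptors, varied far more within genotypes. Kcnj3 ranged from 20.1 to 37.4 CPM in WT and from 23.4 to 45.5 CPM in zQ175, with log2 fold changes of 0.36 ± 0.172 and 0.42 ± 0.173 that were not called (edgeR adjusted p = 0.13 and 0.077). On the TPM scale the first was called (0.46, limma adjusted p = 0.039). In zQ175:Msh3-/- against WT, which reuses mice of both comparisons, edgeR called Kcnj3 higher. Kcnj6 ranged from 1.32 to 5.30 CPM in WT alone, and gave 0.33 ± 0.336 and 0.44 ± 0.335. Kcnj9 ranged from 38.8 to 59.1 CPM in WT and from 41.9 to 67.2 CPM in zQ175, and gave 0.13 ± 0.127 and 0.24 ± 0.127.

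All 3 followed the level of cortical marker genes in the sample. The 5 markers of excitatory neurons of the neighbouring cortex (among them Tbr1, Neurod6, Slc17a7 and Neurod2, none at 0) summed to 44.9 to 302 CPM in WT, 47.0 to 452 CPM in Msh3-/-, 35.5 to 390 CPM in zQ175 and 129 to 655 CPM in zQ175:Msh3-/-, with medians of 193, 212, 265 and 323 CPM, and 0 of 5 were called in either comparison. Over the 32 mice, with the genotype means removed, the log2 CPM of Kcnj6 correlated with the log2 sum of these markers at a Pearson r of 0.93 and a Spearman rho of 0.92. For Kcnj9 the values were 0.90 and 0.95, and for Kcnj3 they were 0.88 and 0.91. Each permutation p within genotypes was 1e-05, the smallest that 100000 resamples can give, with an adjusted p of 6.7e-05 for r and 7.3e-05 for rho over the 80 members. Without the 2 mice farthest from the median marker level, r was 0.92, 0.90 and 0.90. These 3 genes were not alone. Of the 80 members, 30 had an adjusted p for r under 0.05 in this permutation test, 25 with a positive and 5 with a negative r. Kcnab2 (r = 0.66) and Kcnk1 (r = 0.63) were among the positive ones. Among the lowered members r went both ways. It was -0.24 for Kcnab1, -0.44 for Kcnj4 and -0.54 for Kcnh4, with rho of -0.27, -0.38 and -0.52 (permutation test, adjusted p for r = 0.32, 0.053 and 0.0082). For Kcnj14 and Kcnq3 r was 0.50 and 0.42, with rho of 0.53 and 0.40 (permutation test, adjusted p for r = 0.011 and 0.0503). With the marker level as a covariate, an alternative chosen after seeing the data, 20 members were called against WT (3 higher and 17 lower), where 11.5% of all genes were called, and 19 on the Msh3-/- background (4 higher and 15 lower), where 10.3% were.

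**Figure D4:**
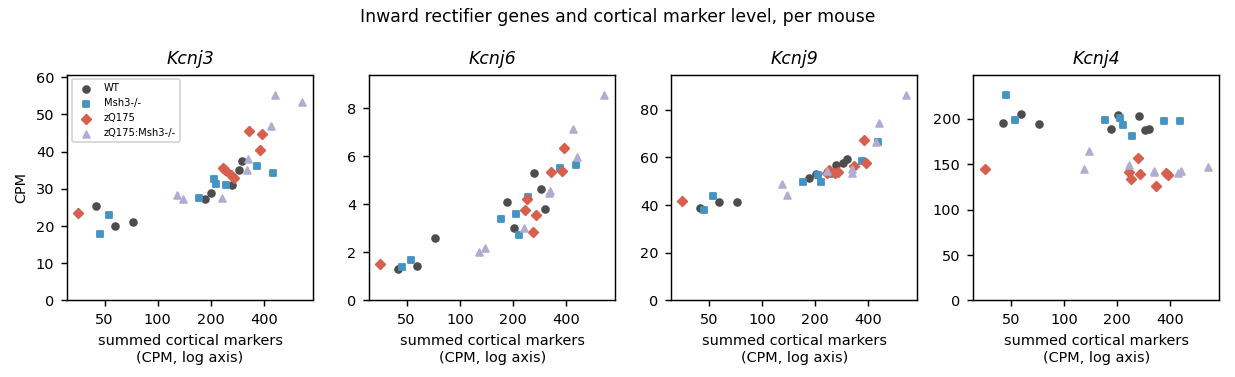
CPM of 4 inward rectifier genes (vertical axis, from 0) against the summed CPM of 5 cortical markers (horizontal log axis) in 32 mice, with colour and symbol for genotype. Kcnj3, Kcnj6 and Kcnj9 rise along the axis in each genotype, whereas Kcnj4 separates mice with and without zQ175 at all marker levels.

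Leak channels of the 2-pore family keep the membrane near the potassium equilibrium potential. Kcnk2 (chr1:189207930-189402273), the mechanically and lipid-gated TREK-1 channel, had 165 to 212 CPM in WT (median 191) and 162 to 197 CPM in Msh3-/- (median 185), against 105 to 152 CPM in zQ175 (median 129) and 119 to 142 CPM in zQ175:Msh3-/- (median 128). Groups with and without the knock-in did not overlap, and the log2 fold changes were -0.57 ± 0.055 and -0.51 ± 0.055 (edgeR adjusted p = 4.9e-10 and 6.9e-09). Kcnk1, the next leak channel by TPM (112 ± 5.6 in WT, n = 8), did not overlap within either comparison, but its changes of -0.24 and -0.26 were under 1.2-fold. Across Msh3 genotypes it did overlap, as zQ175 mice reached 102 CPM and the lowest Msh3-/- mouse had 95.6 CPM. In zQ175:Msh3-/- against WT Kcnk1 was called lower.

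The THIK channel genes, Kcnk12 and Kcnk13, were less abundant. Kcnk12 was at 2.45 to 3.90 CPM in WT and 2.44 to 5.12 CPM in zQ175, a log2 fold change of 0.45 ± 0.157 (edgeR adjusted p = 0.031) that was 0.17 ± 0.156 on the Msh3-/- background. Kcnk12 rose with the cortical markers within genotypes (r = 0.81, rho = 0.79, permutation test, adjusted p = 6.7e-05 and 7.3e-05, and r = 0.78 without the 2 farthest mice), and with those markers as a covariate its change against WT was 0.26 (edgeR adjusted p = 0.068). Without the mice high in Ttr its adjusted p was 0.10, and in males alone 0.67. Kcnk12 was also called higher in zQ175:Msh3-/- against WT, which reuses the WT mice. Kcnk13, a microglial leak channel, was called on the Msh3-/- background, at 10.6 to 18.6 CPM in zQ175:Msh3-/- against 16.7 to 21.5 CPM in Msh3-/- (-0.38 ± 0.082, edgeR adjusted p = 0.000635), and changed by -0.25 ± 0.080 against WT, past the adjusted p only. The 6 microglial markers, none at 0 and 0 of 6 called, summed to 370 to 409 CPM in Msh3-/- and 323 to 382 CPM in zQ175:Msh3-/-.

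Of 10 tested genes for channels gated by calcium or sodium, 1 was called against WT and 0 on the Msh3-/- background. Of all genes 11.6% and 10.6% were called. Kcnt1 (chr2:25863734-25918273), the sodium-activated Slack channel, was at 203 to 256 CPM in WT and 167 to 207 CPM in zQ175 (-0.28 ± 0.044, edgeR adjusted p = 6.2e-06). Of 8 zQ175 mice, 7 lay below all WT mice. On the Msh3-/- background the groups did not overlap and the change was -0.24 ± 0.044, under the fold limit, and with the cortical markers as a covariate the change against WT was -0.26, also under it. Kcnma1, the BK channel pore, ranged from 148 to 179 CPM in WT and from 144 to 186 CPM in zQ175, with a 95% interval of the log2 fold change of -0.16 to 0.07.

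Kcnj13 and Kcne2 did not follow genotype. Both are known from the epithelium of the choroid plexus, which lies in the ventricle beside the striatum and is marked by Ttr. In 7 mice Ttr was at 807 to 2723 CPM, and in these Kcnj13 was at 7.21 to 21.8 CPM and Kcne2 at 6.25 to 19.1 CPM. In the other 25 mice Ttr reached at most 357 CPM, Kcnj13 at most 2.45 CPM and Kcne2 at most 2.17 CPM. Together with 4 further genes chosen after their values were seen (Kl, Folr1, Aqp1 and Clic6), Ttr summed to 32.4 to 1591 CPM in WT, 38.1 to 1845 CPM in Msh3-/-, 49.3 to 1857 CPM in zQ175 and 45.8 to 2995 CPM in zQ175:Msh3-/-. The 7 mice were 2 WT, 3 Msh3-/-, 1 zQ175 and 1 zQ175:Msh3-/-. The fitted differences for Kcnj13 (-1.09 ± 1.094 against WT) were no larger than their error. Without these mice, an alternative chosen after seeing the data, 20 members were called against WT and 17 on the Msh3-/- background, beside 11.5% and 10.3% of 16747 genes.

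**Figure D5:**
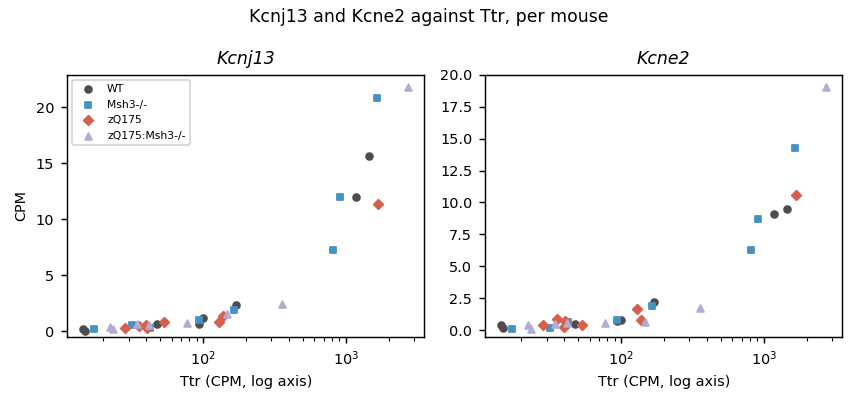
CPM of Kcnj13 and Kcne2 (vertical axes) against CPM of the choroid plexus gene Ttr (horizontal log axis) in 32 mice, with colour and symbol for genotype. The 7 mice with the most Ttr, from all 4 genotypes, are the 7 highest for both channel genes.

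Loss of Msh3 changed no potassium channel gene past the thresholds. In zQ175:Msh3-/- against zQ175, 0 of 80 members were called (0.00602% of all genes were), and 1 member, Kcnf1, had an unadjusted p under 0.05, against 3.7% of all genes. In Msh3-/- against WT, 0 members were called (0.00602% of all genes) and 0 had an unadjusted p under 0.05, against 5.09% of all genes. The interaction of zQ175 and Msh3, which tests whether the zQ175 effect differs with Msh3 genotype, was past an adjusted p of 0.05 for 0 members and 0.0% of all genes, with Kcns2 alone at an unadjusted p under 0.05, against 4.44% of all genes. DESeq2 and limma also called 0 members in each. Members called in one zQ175 comparison and not in the other are therefore not shown to differ between them.

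These comparisons bound the differences they could have missed. For Kcnab1 the 95% interval of the log2 difference between zQ175:Msh3-/- and zQ175 was -0.08 to 0.11, for Kcnj4 -0.01 to 0.14, for Kcnip2 -0.06 to 0.15, for Kcnh4 -0.16 to 0.19 and for Kcnk2 -0.11 to 0.11. For Kcng1 it was -0.09 to 0.18. The 17 members lowered in zQ175 against WT had log2 differences of 0.00 to 0.14 between zQ175:Msh3-/- and zQ175, all positive, with a smallest adjusted p of 0.999. Those members were chosen on the same zQ175 mice, which can itself move such differences upward.

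Other genes of potassium handling were taken from lists outside the name rule. Of 20 partners of these channels 19 were tested, and 2 were higher and 4 lower against WT (31.6%, against 11.6% of all genes). There were 2 higher and 2 lower on the Msh3-/- background (21.1%, against 10.6%). Dpp10, an auxiliary subunit of Kv4 channels, rose by 0.35 and 0.29 on the log2 scale in the 2 zQ175 comparisons, and Lrrc55, an auxiliary subunit of BK channels, by 0.39 and 0.55. Dlg4, which encodes the scaffold PSD-95, changed by -0.30 and -0.29, and Lrrc26, another BK subunit, by -0.92 and -0.59 at about 1 CPM. Akap5 (-0.27) and Abcc9 (-0.29), the KATP partner of Kcnj8, were called against WT alone. Of 15 sodium-potassium pumps, cation-chloride cotransporters and HCN channels, all tested, 0 were called against WT with edgeR, with log2 fold changes from -0.22 to 0.20. Hcn4 was called on the Msh3-/- background (-0.29, edgeR adjusted p = 0.039).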

How the data were processed

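Striatal total RNA from 32 mice was polyA-selected and sequenced as paired reads. The deposited gene table holds raw counts per Ensembl gene. A second deposited table, named for FPKM by the authors, was treated as TPM because each column sums to 1000000. The submitters' processing notes name the GRCm38.p6 build. The aligner, counter, strand setting and annotation are not given in the sources used here. Ensembl IDs were matched to GENCODE M21 (54495 of 54532).

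Counts of all genes were fitted together over the 4 genotypes in edgeR 4.0.16 (R 4.3.3, TMM normalisation, filterByExpr, robust quasi-likelihood test), with Benjamini-Hochberg adjustment over 16610 genes. CPM are per 1000000 counted reads after TMM scaling. Calls needed an adjusted p under 0.05 and a 1.2-fold change, as in the study. Intervals are 1.96 standard errors either side. Exact permutation tests used all 12870 arrangements. Single genes were named by rule: up to 14 lower and 8 higher called members with the smallest adjusted p against WT, up to 4 called only on the Msh3-/- background, up to 6 called in any Msh3 comparison, the 6 highest in WT TPM, and 12 preset genes. The other called members are given by fold change alone, and those named beside them were chosen after their values were seen. Members, lists and tests were chosen with earlier results of these data known. On simulated counts for zQ175 against WT (16328 genes, 200 changed), edgeR recovered 90% of 1.5-fold and 99% of 2-fold changes with 1 false call. Only these 2 sizes were simulated, in genes above a count limit. Recovery of smaller changes, the size of most calls here, and of changes at very low counts was not tested. Alternatives were DESeq2 1.42.0, limma 3.58.1 on log2(TPM + 0.1) or log2(TPM + 1), other size factors and filters, sex or replicate number as a term, each sex alone, and the cortical and Ttr alternatives. No pair of mice within a genotype agreed within sampling noise (lowest chi-square per degree of freedom 4.26). P-values measure the spread between mice. Members overlapped by genes on the other strand are uncertain. Besides Kcnab1 they include Kcnab2, Kcnh3, Kcnk1, Kcnk2, Kcnma1, Kcnq3, Kcnq5, Kcnj3, Kcnj6, Kcnj9 and Kcnj13. Kcnab2 is also overlapped by a gene on its own strand. Some genes and sequences that the rule names are not reported here, though they are counted in the totals.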

Additional observations from a re-analysis of the deposited data

Results flagged for a closer look

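Within genotypes of 8 mice, the highest or lowest mouse stood apart by Dixon's ratio (gap over range of log2 CPM, above the 95% critical value for 8 samples) in 12 of 112 sets, where chance flags about 1 in 20, or 5.6. The sets were the genes named by rule and reported here, and Kcnj13 and Kcne2, which were added after their values were seen.

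Of these, 6 flags fell on mice high in Ttr. Kcnj13 in zQ175 male 3 was 11.4 CPM against at most 1.32 CPM in the others (ratio 0.601), and Kcne2 in the same mouse was 10.6 CPM against at most 1.66 CPM (0.531). Kcne2 in zQ175:Msh3-/- male 4 was 19.1 CPM against at most 1.77 CPM (0.528). Kcne1l in WT male 2, also high in Ttr, was 8.35 CPM against 4.84 to 6.22 CPM (0.542). Kcnma1 was lowest in that same WT mouse, at 148 CPM against 166 to 179 CPM (0.597). Kcnq3 was lowest in Msh3-/- male 1, again a mouse high in Ttr, at 231 CPM against 275 to 294 CPM (0.727).

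Kcnj4 was highest in male 2 of Msh3-/-, at 226 CPM against 182 to 201 CPM (0.541), and in male 2 of zQ175:Msh3-/-, at 165 CPM against 141 to 149 CPM (0.627), which still lies below every mouse without the knock-in. Kcnk2 was highest in zQ175:Msh3-/- female 3 at 142 CPM against 119 to 129 CPM (0.565). Kcna5 was lowest in zQ175:Msh3-/- male 1 at 15.4 CPM against 21.6 to 24.5 CPM (0.729). Kcnk12 was lowest in zQ175 male 4 at 2.44 CPM against 3.82 to 5.12 CPM (0.603), and Kcnj8 was lowest in zQ175 female 2 at 2.67 CPM against 3.56 to 4.15 CPM (0.648).

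Several of these mice also stood at an end of the summed cortical markers in their genotype. WT male 2 had the lowest sum of its group at 44.9 CPM, and Msh3-/- male 2 and male 1 the lowest sums of theirs at 47.0 and 53.0 CPM. The sum in zQ175 male 4 was 35.5 CPM, the lowest of all 32 mice, and that in zQ175:Msh3-/- male 1 was 655 CPM, the highest. Within genotypes Kcnma1 rose with these markers (Pearson r = 0.71, Spearman rho = 0.73, permutation test, adjusted p = 6.7e-05 and 0.00011, and r = 0.68 without the 2 farthest mice), and the relations of Kcnk12, Kcne1l and Kcna5 are given above. The part of the choroid plexus and cortical signals in the single mice was not tested.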

How the results depend on the processing

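Counts of called members stayed within 1.5 times of the reported ones except as follows. Testing against 1.2-fold itself (edgeR's glmTreat) called 10 in zQ175 against WT, 10 on the Msh3-/- background and 9 in zQ175:Msh3-/- against WT. Of all 16610 genes, that test called 641, 541 and 624. A limit of 1.5-fold left 4, 5 and 5 members, and 538, 503 and 568 of all 16610 genes. The adjusted p alone gave 26 members on the Msh3-/- background, and 4002 of all 16610 genes. Males alone gave 12 members in zQ175:Msh3-/- against WT, and 1244 of 16771 genes. In the Msh3 comparisons and the interaction, 0 members were called under all alternatives run. Over the 2 main zQ175 comparisons and the named genes, 807 gene-level repeats kept their side of the thresholds, 53 lost a call and 8 gained one, and no called gene changed sign. The replicate numbers do not pair the mice (correlations of same-numbered mice -0.147 to 0.333, over 0.1 in 14 of 45 pairs). With the replicate block 21 members were called against WT, 17 on the Msh3-/- background and 16 in zQ175:Msh3-/- against WT. The block fit called 1931, 1694 and 1901 of all 16610 genes. Low counts limit Kcnh8, Kcnh6, Kcnj14 and Kcnk12.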
